A study of Mesostigma viride with 16 samples.

Results

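The effect of high temperature on the transcriptome of *Mesostigma viride* was examined by comparing cells kept at 32 °C for 24 h with untreated cells kept at 23 °C (Control 1). *M. viride* is a unicellular freshwater alga of the charophytes, the green algae from which land plants arose. The comparison was chosen by the labels of the libraries and comprised 3 of the 15 RNA-seq libraries with values, namely 2 high temperature libraries and 1 Control 1 library (replicate 2). Replicate 1 of Control 1 was not analysed here. All cultures were of strain NIES-296, were 24 days old when treated, and had been grown in medium C at 23 °C under 10 h of light and 14 h of dark at 50 µmol photons. Apart from the temperature of their last 24 h, no difference between the high temperature and the Control 1 cultures is stated. The other 12 libraries, 2 each, were of darkness, high light, cold (12 °C), low pH (6.0), high pH (9.0) and Control 2, in which untreated cells had an equal volume of medium C added. They served to estimate the spread between replicates and as a reference for single genes.

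Heat unfolds proteins and disturbs membranes. In plants and algae, heat shock factors (HSFs) are the transcription factors that switch on genes for chaperones, while ATP-driven unfoldases such as CDC48 and proteases such as FtsH clear damaged proteins, the latter in the thylakoid where photosystem II is repaired. Growth and division are commonly slowed under heat stress. The deposited values are FPKM, the fragments mapped to a transcript divided by its length and by all mapped reads of the library. They give each transcript relative to all transcripts of its library, so a gain by some genes lowers the values of the others.

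The summed FPKM was 649489 and 683704 at high temperature and 578174 to 673116 in the others. The 2 high temperature libraries were close to each other, with a correlation of 0.985 across genes on the log2 scale, which is not a replicate test because genes are not independent. Their correlation with the other libraries was 0.766 to 0.809. Of 24431 listed genes, the 14297 that reached 0.5 FPKM in 2 or more libraries were tested with limma on log2(FPKM + 0.1). A gene was called differentially expressed at an adjusted p of at most 0.01 and a fold change of at least 2. Because Control 1 had a single library, its spread was assumed to be that of replicates of the other conditions, and an exact permutation test of 2 libraries against 1 cannot go below p = 0.333.

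The transcript pool was concentrated in fewer genes at high temperature than in any other library. The 1000 genes with the highest FPKM held 86.9% and 88.6% of the summed FPKM in the 2 high temperature libraries, 75.1% in Control 1 and 73.8% to 78.9% in the 13 other libraries. The effective number of genes, the exponential of the entropy of the shares, was 698.2 and 607.5 at high temperature, 1346.9 in Control 1 and 983.7 to 1601.9 over all others. Neither measure overlapped between high temperature and any other condition. For the top 100 genes the shares were 52.8% and 55.0% at high temperature (mean 53.9 ± 1.54, SD, n = 2) and 46.2% in Control 1, but the darkness libraries, with 52.4% and 51.9%, came close. For the top 10 genes the high temperature libraries, with 16.0% and 16.9%, lay within the range of the others, which reached 17.1% in darkness. Darkness was thus close to high temperature for the most abundant genes but not over the top 1000, where it held 78.9% and 78.6%.

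**Figure D1:**
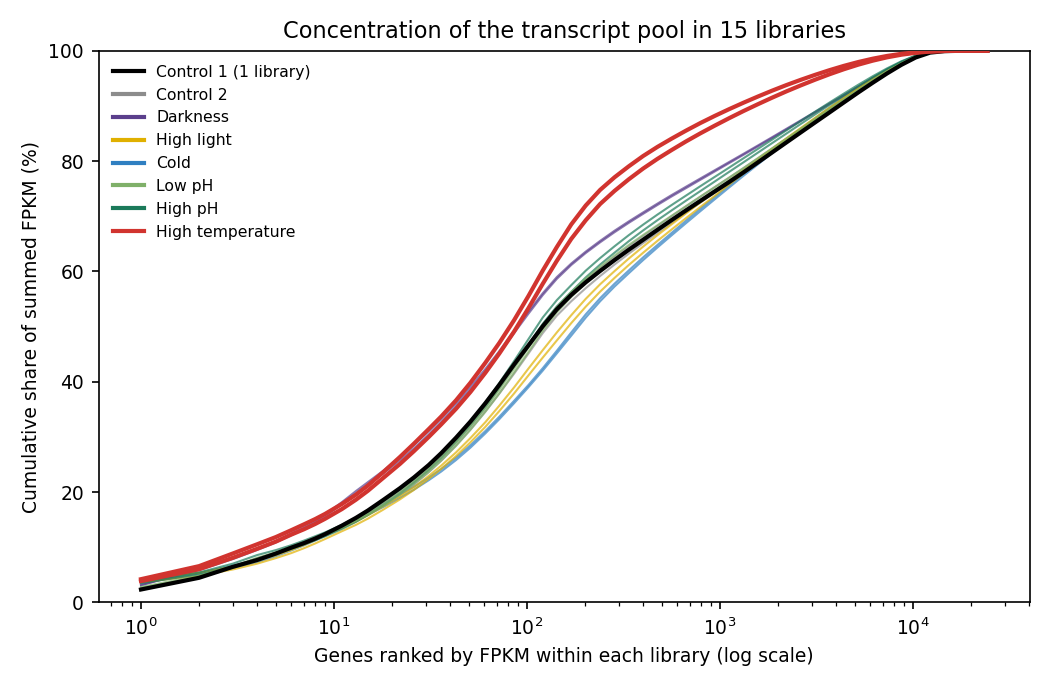
Cumulative share of the summed FPKM (y axis, %) against the rank of genes by FPKM in each of the 15 libraries (x axis, log scale), 1 line per library, coloured by condition. The 2 high temperature lines run above all others beyond about rank 100 and reach 86.9% and 88.6% at rank 1000, against 75.1% for Control 1.

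Fewer genes had intermediate levels at high temperature, while more had very high levels. At least 10 FPKM was reached by 3622 and 3375 genes at high temperature, 6360 genes in Control 1 and 5710 to 6360 genes in the 13 other libraries. At 1000 FPKM or more the order turned, with 154 and 157 genes at high temperature, 124 in Control 1 and 97 to 127 in the others. The median FPKM of the tested genes was 2.98 and 2.57 at high temperature and 8.58 in Control 1. At least 0.5 FPKM was reached by 12250 and 11744 genes at high temperature, 13719 in Control 1 and 13203 to 13822 in the 13 other libraries. Fewer genes thus reached this level at high temperature, but the fall from Control 1 was smaller than at 10 FPKM. Of the 100 genes with the highest FPKM in Control 1, 65 and 69 were among the top 100 of the high temperature libraries, and 83 to 94 were among those of the other treated or Control 2 libraries.

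Between Control 1 and the mean of the high temperature libraries, 32.3 percentage points of the summed FPKM changed hands. They were gained by 5022 genes and lost by 16015. The gain was carried by few genes, since 26 genes made up 50% of it and 15 genes 40.0% (12.9 points). The loss was spread over many, since 405 genes made up 50% of it and the 15 largest 12.3% (3.98 points). Genes called higher held 5.27% of the pool in Control 1 and 31.97% and 31.42% at high temperature, and genes called lower held 28.0% in Control 1 and 6.98% and 6.29% at high temperature. These shares describe how the genes were chosen and are not a test.

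The gene that gained most was Mv21479-RA, which had 78.7 FPKM in Control 1 and 14059 and 15746 FPKM at high temperature, a 189-fold higher mean (log2 fold change 7.56 ± 0.09, SE, adjusted p = 3.32e-13). Its share of the pool went from 0.0124% to 2.16% and 2.30%. It was the second gainer, Mv11297-RA, that had the highest FPKM of all genes at high temperature, with 25058 and 28825 FPKM, but it already had 14875 FPKM in Control 1 and 25469 in one high light library. Its log2 fold change of 0.85 did not reach the 2-fold limit. None of the 26 genes that made up 50% of the gain is named in the study's gene tables, so what they encode is not given here. Of the 26 genes, 24 were called higher, all but Mv11297-RA and Mv16427-RA (log2 fold change 0.53). In 23 of the 26 both high temperature libraries lay above all 13 other libraries. Over all tested genes, 6.83% were called higher and 8.6% lay above all other libraries. Because the 26 genes were chosen by their gain at high temperature, neither count is a test.

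**Figure D2:**
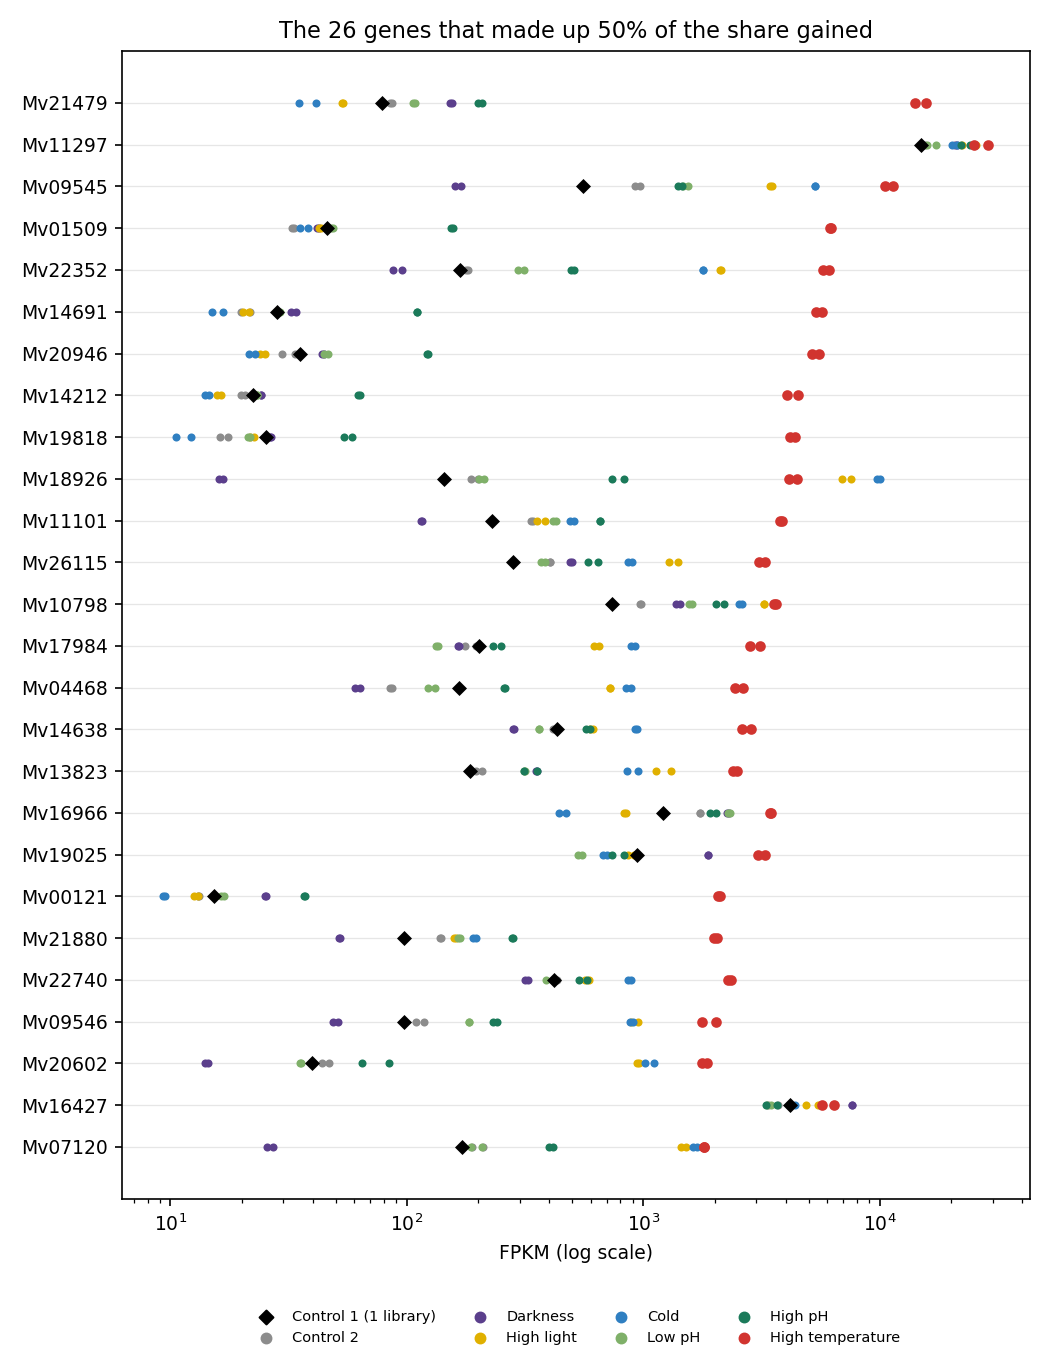
FPKM (x axis, log scale) of the 26 genes that made up 50% of the share gained, ordered by gain from the top, with 1 point per library, coloured by condition. The 7 genes raised over 100-fold have all high temperature points at 2077 FPKM or more and no other point above 208 FPKM, while most of the others have cold or high light points between Control 1 and high temperature.

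The 26 genes fell into those that were low in every other condition and those that were not. In 7 of them, Mv21479-RA, Mv01509-RA, Mv14691-RA, Mv20946-RA, Mv14212-RA, Mv19818-RA and Mv00121-RA, the mean at high temperature was 135 to 196 times the Control 1 value. These 7 genes had at least 2077 FPKM in each high temperature library and at most 208 FPKM in any other library. Mv14691-RA, for example, had 28.2 FPKM in Control 1, 5363 and 5689 at high temperature, 111 in both high pH libraries and 14.9 to 34.0 elsewhere. High pH was the next highest condition of all 7 genes, and each was called higher at high pH relative to Control 2. The fold change of that comparison used neither the high temperature nor the Control 1 library. Its spread, however, was estimated from the replicates of all conditions, high temperature included. None of the 7 was called higher in cold, high light, darkness or low pH relative to Control 2, and Mv21479-RA was called lower in cold.

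Most of the other 19 genes also rose in cold and under high light. Relative to Control 2, 13 of the 19 were called higher in cold and 11 under high light, the 11 all being among the 13, and 7 were called lower in darkness. Mv09545-RA had 555 FPKM in Control 1, 10540 and 11330 at high temperature, 5340 and 5321 in cold, 3445 and 3516 under high light, and 160 and 170 in darkness. Mv18926-RA was higher in cold (10059 and 9702 FPKM) and high light (6937 and 7562) than at high temperature (4141 and 4482), against 143 in Control 1 and 16.6 and 16.0 in darkness. Mv22352-RA was highest at high temperature, with 5727 and 6115 FPKM against 168 in Control 1 (log2 fold change 5.13), followed by high light (2123 and 2108) and cold (1782 and 1786). A different order was seen for Mv16966-RA, which had 1210 FPKM in Control 1 and 3454 and 3425 at high temperature, but only 440 and 469 in cold and 826 and 842 under high light, and was called lower in both. Mv19025-RA shared its rise with darkness (1876 and 1874 FPKM), having 3046 and 3259 at high temperature and 939 in Control 1. For Mv11101-RA, with 230 FPKM in Control 1 and 3845 and 3788 at high temperature, no other library exceeded 656 FPKM. Over all 26 genes, 14 were called higher at high pH, where 0.790% of tested genes were, 13 in cold (4.78%), 11 under high light (5.57%), 2 in darkness (7.09%) and 0 at low pH (0.664%). At low pH their median log2 fold change was 0.32, and that of all tested genes was -0.02. The comparisons with Control 2 were added after the values of these genes had been seen.

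Among the called genes that averaged 10 FPKM or more over the 3 libraries, the largest fold changes were those of 4 of the 7 genes above (Mv14691-RA, Mv14212-RA, Mv21479-RA and Mv19818-RA, at 7.61, 7.58, 7.56 and 7.40 on the log2 scale) and of Mv10750-RA. Mv10750-RA had 10.1 FPKM in Control 1, 1585 and 1654 at high temperature, and 4.59 to 16.7 in all other libraries (log2 fold change 7.32 ± 0.11, adjusted p = 1.63e-12). Unlike the 7 genes, it was not called higher at high pH, where it had 9.90 and 10.98 FPKM.

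The 15 genes that lost most of the pool were mostly abundant genes that changed little. Mv10504-RA lost most, with 12658 FPKM in Control 1 and 8455 and 8937 at high temperature, but cold (6530 and 6013) and high light (5459 and 5681) had lower values still. Of the 15 genes, 4 were called lower and 11 were not. After median-ratio scaling the log2 fold changes of the 11 genes were above 0 (0.64 to 1.01). Mv21455-RA fell furthest, from 1268 FPKM to 52.2 and 43.5 (log2 fold change -4.73 ± 0.08, adjusted p = 3.13e-12). Darkness, with 72.6 and 73.0 FPKM, was close to it. Mv09033-RA fell from 1985 FPKM to 260 and 249 (-2.96), close to high light (249 and 251) and above cold (132 and 156). Mv09666-RA (-1.12) and Mv00801-RA (-1.17) were called lower, but their log2 fold changes were 0.19 and 0.15 after median-ratio scaling. The high temperature libraries lay below all others for 2 of the 15, Mv21455-RA and Mv00801-RA.

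Over all tested genes, 977 (6.83%) were called higher at high temperature and 7909 (55.3%) lower, together 62.2%, and the median log2 fold change was -1.29. With median-ratio scaling, in which every library is divided by a typical gene's ratio to the mean library, 3325 genes (23.3%) were called higher and 3863 (27.0%) lower, with a median of -0.04. The scaling factors were 0.536 and 0.462 for the high temperature libraries and 1.07 to 1.24 for the others. All 977 genes called higher before scaling were called higher after it, and all 3863 genes called lower after scaling had been called lower before it. A further 4046 genes were lower as deposited and not called after scaling, and 2348 were higher only after scaling. No gene was called in opposite directions. FPKM do not tell the amount of RNA per culture or per cell, so for any gene fewer expressing cells and fewer transcripts per cell cannot be told apart, nor can a fall in transcripts from a rise in the rest of the pool.

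The change differed between genes of different level. Genes were ordered by their mean in Control 2, which was in neither arm, and split into 10 groups of equal size. The median log2 fold change was -0.65 in group 1, the lowest (median 0.405 FPKM), -1.78 in group 5 (median 6.97 FPKM) and -0.82 in group 10, the highest (median 90.7 FPKM). In groups 3 to 6 between 64.1% and 66.4% of genes were called lower, and in group 10 44.8% were lower and 10.7% higher. After scaling the medians ran from -0.51 in group 5 to 0.50 in group 10. The pseudocount of 0.1 makes changes of group 1 smaller than the ratios of their values. Group 1 reached down to 0 FPKM in Control 2. Some of its genes therefore reached the minimum of 0.5 FPKM only in other libraries, which can be those of high temperature. That choice can raise its median, so the smaller fall of group 1 cannot be put down to level.

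**Figure D3:**
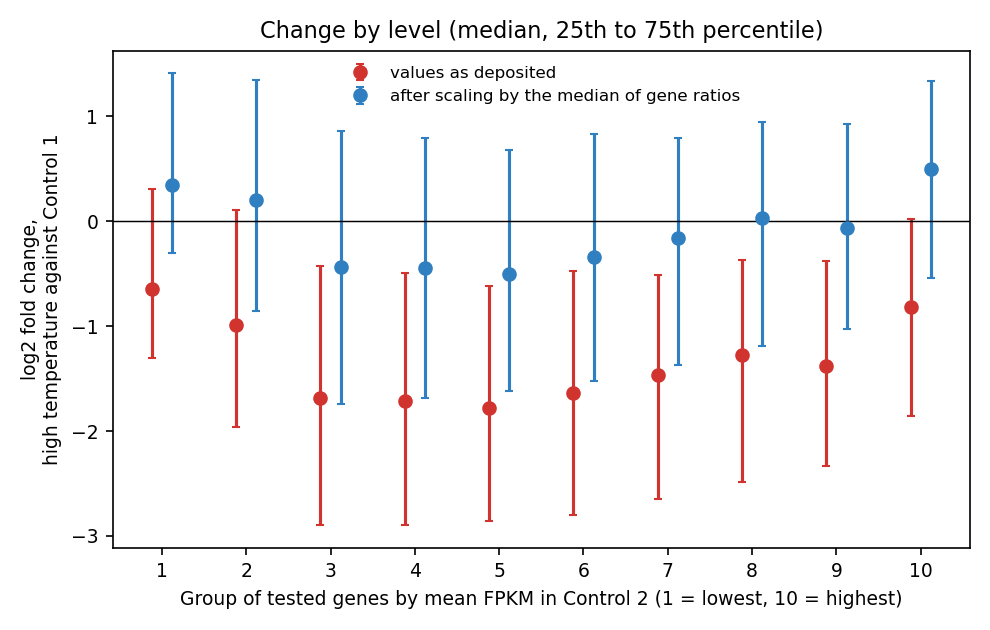
Median log2 fold change of high temperature against Control 1 (y axis, points) with the 25th to 75th percentiles of genes (bars) in 10 groups of the tested genes by mean FPKM in Control 2 (x axis, 1 the lowest), as deposited and after median-ratio scaling. The deposited medians are lowest in group 5 (-1.78) and nearest to 0 in groups 1 (-0.65) and 10 (-0.82). The minimum for testing can raise the median of group 1.

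Some genes were lost almost entirely. Of the 6360 genes with at least 10 FPKM in Control 1, 75 had under 0.5 FPKM in both high temperature libraries, and a further 219 had a higher value of 0.5 to 1 FPKM. The 75 genes had 10.1 to 26.9 FPKM in Control 1 (median 13.9), so no gene above 26.9 FPKM was lost by this limit. They were chosen by a high value in the single Control 1 library, which can make their starting levels look higher. Mv22750-RA, for example, had 14.4 FPKM in Control 1 but 4.53 and 4.68 in Control 2. For Mv21740-RA, in contrast, Control 2 was higher, with 23.7 and 25.5 FPKM. The 5 with the highest Control 1 value were Mv00429-RA, Mv04984-RA, Mv14196-RA, Mv07906-RA and Mv21740-RA. Mv00429-RA had 26.9 FPKM in Control 1, 0.331 and 0.346 at high temperature and 6.52 to 28.8 in all others. Mv14196-RA had 22.96 FPKM in Control 1, 0.122 and 0.409 at high temperature and 11.9 to 19.9 elsewhere. Mv07906-RA and Mv21740-RA had 21.8 and 21.7 FPKM in Control 1 and at most 0.417 at high temperature. Mv04984-RA was listed at 0 in both high temperature libraries, but also in 3 libraries of other conditions, and it was not called (adjusted p = 0.0144).

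In 73 of the 75 genes the high temperature libraries lay below all others, as they did for 59.6% of all tested genes. The count follows largely from choosing genes by low values at high temperature and is not a test. The median over the 75 genes of the lowest value among the other 13 libraries was 6.35 FPKM. At 0 in both high temperature libraries were 3 genes, and 6 more were at 0 in one of them. Of the 3, only Mv04809-RA was called lower. Mv04984-RA and Mv04311-RA were not called, and both were also at 0 in some libraries of other conditions. Relative to Control 2, 13 of the 75 genes were called lower in darkness (3.15% of tested genes), 10 in cold (6.90%), 7 at high pH (1.46%), 4 under high light (2.73%) and 4 at low pH (0.902%). Of the 75 genes 6 carry a name in the study's tables. They are the homologs of BUB3 (Mv08388-RA), RRA1 (Mv14652-RA), the EFS/SDG8/ASHH2 block (Mv10940-RA) and augmin subunit 2 (Mv12881-RA), and 2 genes with broad GO terms, Mv00829-RA (cytoplasmic part) and Mv07970-RA (metabolic process, chloroplast).

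Genes with a higher level in Control 1 also fell steeply. Mv12274-RA had 250.5 FPKM in Control 1, 248.1 and 251.6 in Control 2 and 3.09 and 2.58 at high temperature (log2 fold change -6.42 ± 0.09, adjusted p = 8.93e-13), the largest fall among called genes that averaged 10 FPKM or more. It was also low in darkness (31.2 and 31.9 FPKM). Mv13530-RA (-6.10), Mv16790-RA (-6.07), Mv06450-RA (-5.92) and Mv14236-RA (-5.79) followed, and Control 1 held the highest value of the first 3 among all libraries. None of these genes is named in the tables.

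The reverse switch was rare. Of the 10712 genes under 0.5 FPKM in Control 1, 3 reached 10 FPKM in both high temperature libraries. Mv26287-RA had 0.466 FPKM in Control 1, 18.5 and 18.2 at high temperature and at most 0.592 in any other library (log2 fold change 5.03 ± 0.75, adjusted p = 6.72e-05). Mv25811-RA went from 0.143 to 22.2 and 12.6 FPKM, with 4.69 and 3.92 under high light. Mv01063-RA went from 0.445 to 13.9 and 10.8 FPKM. The genes that gained most of the pool were expressed at 23 °C already, the lowest of the 26 at 15.3 FPKM in Control 1.

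The HSFs, named here from the study's list of transcription factors, served as a check of the label and moved apart. Mv19848-RA, the most abundant of the 4, rose from 47.3 FPKM in Control 1 to 106 and 100 FPKM (log2 fold change 1.12 ± 0.08, adjusted p = 1.47e-07). In all other libraries it had 44.8 to 67.2 FPKM, so the groups did not overlap. Mv20706-RA fell from 8.44 FPKM to 1.96 and 1.33 (-2.31, and -1.04 after scaling). Mv10352-RA fell from 4.39 FPKM to 0.946 and 0.889 (-2.14), but was not called after scaling (-0.90). Mv20172-RA had 13.3 FPKM in Control 1 and 6.0005 and 6.136 at high temperature (-1.12, and 0.19 after scaling), and relative to Control 2 it was not called (-0.99). The one gene that carries the GO term heat acclimation, Mv17255-RA, fell from 19.3 FPKM to 1.91 and 1.96 (-3.25, and -1.97 after scaling) and had 16.6 to 23.96 FPKM in every other library. The tables used here name no chaperone, so chaperone genes could not be counted.

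Of 9 genes listed for protein turnover, 1 rose and 4 fell as deposited, and 2 were higher and 1 lower after scaling (all tested genes 6.83% and 55.3%, then 23.3% and 27.0%). The list also holds HUB1 (Mv17580-RA), UBC1 (Mv08066-RA) and UBP26 (Mv07617-RA), which the study placed among genes of epigenetic processes. Its counts and median are thus not of protein degradation alone. Mv00847-RA, a homolog of CDC48, rose from 99.7 FPKM to 303 and 293 (log2 fold change 1.58 ± 0.05, adjusted p = 1.38e-10), above the 77.0 to 200 FPKM of all other libraries. The homologs Mv14823-RA (-2.67) and Mv00029-RA (-1.35), both listed under CDC48B, fell, the latter to -0.05 after scaling. SKP1 (Mv07054-RA), a subunit of SCF ubiquitin ligases, had 295 FPKM in Control 1 and 125 and 100 at high temperature (-1.40, and -0.08 after scaling). The fourth was Mv07617-RA, listed as the deubiquitinase UBP26 (-1.45, and 0.21 under quantile normalization). The list median was -0.68, and 0.63 after scaling.

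Of 11 genes of photosynthesis, 2 rose and 3 fell, beside 6.83% and 55.3% of all tested genes. The list median was -0.38, beside -1.29 over all tested genes. HCF173 (Mv13914-RA), which in Arabidopsis is needed for translation of the D1 protein of photosystem II, rose from 9.01 FPKM to 77.7 and 78.6 (log2 fold change 3.103 ± 0.08, adjusted p = 4.91e-11), above the 8.47 to 50.0 FPKM of the others. FTSH2 (Mv19820-RA), a subunit of the thylakoid protease that removes damaged D1, rose from 149 FPKM to 705 and 751 (2.29 ± 0.07, adjusted p = 1.94e-10). Its values in the other libraries ran from 66.8 to 865 FPKM, so the high temperature values lay within their range. Of the 3 genes that fell, the malic enzyme homolog me2 (Mv15086-RA) went from 35.2 FPKM to 4.04 and 4.23 (-3.06), while the aminotransferases ASP5 (Mv13545-RA, -1.35) and GGT1 (Mv14619-RA, -1.21) were at -0.04 and 0.10 after scaling. After scaling 5 of the 11 were higher and 1 was lower, beside 23.3% and 27.0% of all tested genes.

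Genes with plastid GO terms were called lower about as often as all tested genes (55.3% as deposited, 27.0% after scaling): of 27, 2 rose and 15 fell as deposited, and 4 were higher and 9 lower after scaling. Mv09805-RA, whose terms include ferredoxin-NADP+ reductase activity, rose from 82.7 FPKM to 211 and 234 (log2 fold change 1.43), as did Mv01737-RA from 2.71 to 7.19 and 7.08 FPKM (1.36). Mv10383-RA, a gene with the term chloroplast thylakoid membrane, fell from 294 FPKM to 17.4 and 18.1 (-4.04, adjusted p = 4.57e-12), and Mv07970-RA (-4.97) and Mv05442-RA (-4.15) fell from lower levels. Of 10 genes with mitochondrial terms, 6 fell and none rose as deposited, again near the 55.3% of all tested genes, among them Mv21836-RA (-5.14) and Mv12639-RA, with a term for dolichol biosynthesis, which went from 81.7 FPKM to 2.95 and 3.42 (-4.64). After scaling 1 was higher and 4 were lower. Of 6 genes for starch, isoprenoids and sterols 3 fell, likewise near that share, and after scaling 1 was higher and 1 lower. Mv00625-RA (-4.04) was lower on both scales, while Mv10425-RA (-1.65) and Mv05251-RA (-1.07) were not called after scaling (-0.35 and 0.24).

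**Figure D4:**
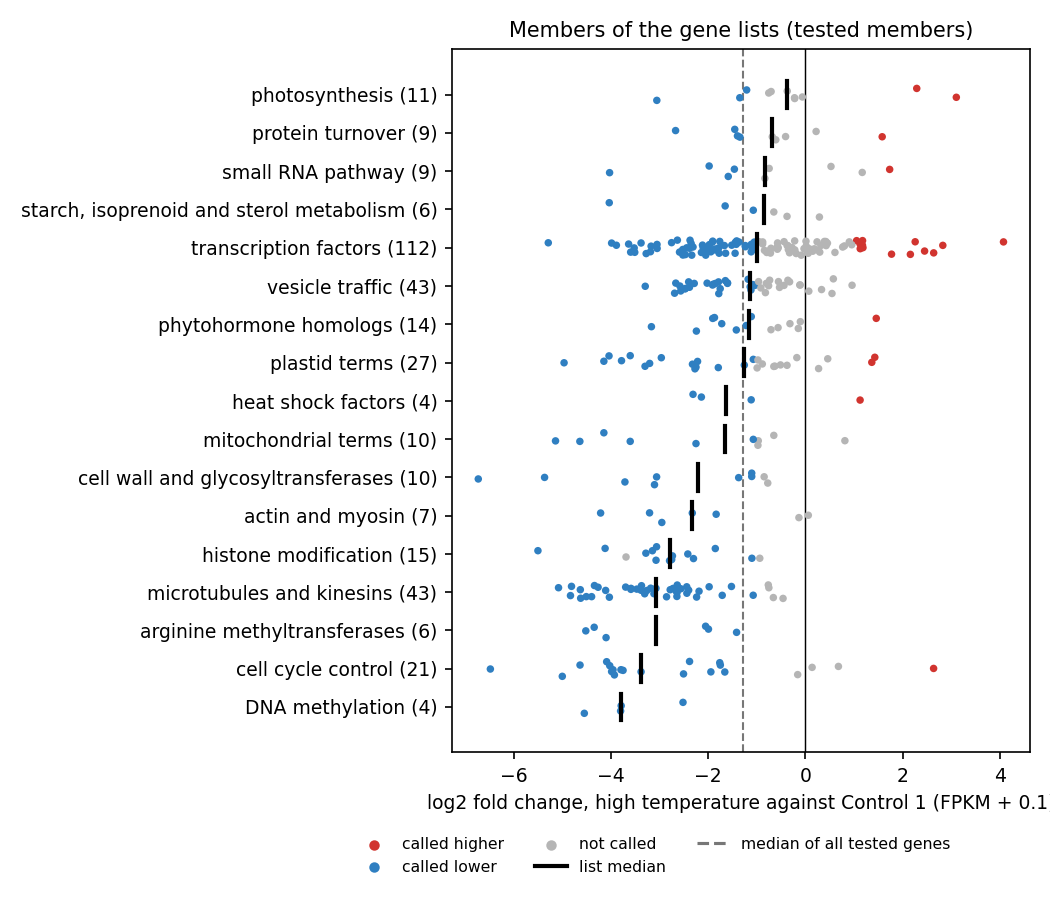
Log2 fold change of high temperature against Control 1 (x axis) of the tested members of each gene list with more than 1 tested member (number in parentheses), coloured by call, with the list median (black bar) and the median of all tested genes (dashed line, -1.29). Lists for DNA methylation, the cell cycle, arginine methylation, microtubules and histone modification have medians below -2.7, and photosynthesis has the highest median (-0.38).

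Most cell cycle genes fell, 17 of 21 as deposited and 13 of 21 after scaling, beside 55.3% and 27.0% of all tested genes. The list median was -3.38, and 1 gene was higher as deposited and 3 after scaling. CYCA1;1 (Mv18326-RA), an A-type cyclin, went from 47.0 FPKM to 1.88 and 1.71 (log2 fold change -4.64 ± 0.12, adjusted p = 4.40e-11). TPX2 (Mv17915-RA), a spindle assembly factor, went from 22.7 FPKM to 0.661 and 0.566 (-5.00). Mv08388-RA, listed as BUB3 of the spindle checkpoint, went from 21.2 FPKM to 0.252 and 0.0612 (-6.48, adjusted p = 5.55e-09). Another gene listed as BUB3, Mv15345-RA, fell less, from 18.6 FPKM to 3.30 and 3.09 (-2.51, and -1.21 after scaling). Both Aurora kinase homologs and all 4 genes of the E2F/DP/DEL family of transcription factors fell too, though Mv14419-RA was not called after scaling (-0.46). The exception was Mv14758-RA, listed as a homolog of CDKA;1 and CDKB2;1, which rose from 8.58 FPKM to 53.8 and 53.9 (2.64 ± 0.11, adjusted p = 1.43e-09), above the 6.23 to 30.2 FPKM of all other libraries. The other kinases listed under the same names differed, as Mv18794-RA (-3.75) and Mv23038-RA (-3.96) fell while Mv07792-RA had 11.9 FPKM in Control 1 and 14.6 and 11.8 at high temperature and was higher after scaling only. Cyclin T (Mv13939-RA), which acts in transcription rather than division, had 37.4 FPKM in Control 1 and 64.5 and 55.5 at high temperature (0.68, not called as deposited).

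The Control 1 library bore on the size of these falls. Control 1 held the highest value of all 15 libraries for 10 of the 21 cell cycle genes, 19 of 43 microtubule genes and 3 of 4 DNA methylation genes, and for 13.1% of all tested genes. CYCA1;1 had 16.4 and 19.3 FPKM in Control 2, against 47.0 in Control 1. Relative to Control 2, where 52.2% of tested genes were called lower at high temperature, 17 of 21 cell cycle genes were again lower, with a median of -3.24, and so were 39 of 43 microtubule genes (median -2.83) and 4 of 4 DNA methylation genes (median -3.19).

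Of 43 genes for microtubules and kinesins, 39 fell, 33 after scaling, beside 55.3% and 27.0% of all tested genes, and none rose on either scale. In 41 of them the high temperature libraries lay below all others, which was the case for 59.6% of all tested genes. Gamma tubulin (Mv12488-RA), which nucleates microtubules, went from 31.7 FPKM to 0.800 and 0.881 (log2 fold change -5.08 ± 0.08, adjusted p = 2.27e-12), and its partners in the gamma tubulin complex, among them Mv13798-RA (-4.81), fell with it. Mv00481-RA, listed as the microtubule-associated protein MAP70-1, fell from 19.1 FPKM by 4.83 on the log2 scale. Another gene of that name, Mv19459-RA, went from 110 FPKM to 24.3 and 23.9 (-2.19) and was not called after scaling (-0.87). The tubulins themselves differed. Mv21576-RA, listed as a homolog of TUA4 and of the beta-6 chain, had 936 FPKM in Control 1 and 101 and 93.8 at high temperature (-3.26 ± 0.41), but 345 and 355 in Control 2, a log2 fold change of -1.84 against that control. The beta tubulins Mv08461-RA (267 FPKM in Control 1, 156 and 157 at high temperature) and Mv13535-RA (250, and 149 and 148) were not called. Tubulins are near-identical in many species, and how Cufflinks split shared reads between them is not known here.

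Of 7 genes for actin and myosin, 5 fell as deposited, and 4 were lower and 2 higher after scaling. Among all tested genes 55.3% were lower as deposited, and 27.0% were lower and 23.3% higher after scaling. Actin (Mv14259-RA) had 532 FPKM in Control 1, the highest of the 13 other libraries, whose lowest was 321 FPKM, and 64.3 and 73.1 at high temperature (log2 fold change -2.95 ± 0.08, adjusted p = 5.45e-11), and the less abundant actin Mv16959-RA fell by 3.21 on the log2 scale. A homolog of myosin VIII (Mv10927-RA) went from 27.6 FPKM to 1.61 and 1.20 (-4.21). The formins Mv15054-RA (8.12 FPKM in Control 1, 8.46 and 6.45 at high temperature) and Mv22007-RA (7.77, and 10.2 and 6.45) did not pass the limits as deposited and were called higher after scaling. Of 43 vesicle traffic genes, 25 were lower and none higher, with a median of -1.14 beside -1.29 over all tested genes. The 25 are near the 55.3% of all tested genes called lower. After scaling 7 were higher and 10 lower, beside 23.3% and 27.0% of all tested genes. TWD40-2 (Mv22292-RA, -3.30), the vesicle SNARE VAMP721 (Mv21551-RA, -2.69) and the exocyst subunit SEC3A (Mv01559-RA, -2.67) fell most.

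Of 10 genes for cell wall polymers and glycosyltransferases, 8 fell as deposited and 5 were lower after scaling, beside 55.3% and 27.0% of all tested genes, and none rose. RRA1 (Mv14652-RA), an arabinosyltransferase in Arabidopsis, had 16.7 FPKM in Control 1 and 10.1 to 18.0 FPKM in all other libraries, and at high temperature 0.151 FPKM in one library and 0 in the other. A second gene listed as RRA1, Mv18797-RA, had 6.43 FPKM in Control 1 and 3.21 and 2.68 at high temperature (-1.11, and 0.18 after scaling). The nucleotide sugar transporter URGT1 (Mv11156-RA) went from 6.86 FPKM to 0.0242 and 0.129 (-5.37), and callose synthase CALS1 (Mv16380-RA) from 11.1 FPKM to 0.879 and 0.650 (-3.71).

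All 4 DNA methylation genes fell, also after scaling, beside 55.3% of all tested genes as deposited and 27.0% after scaling. The methyltransferase homologs Mv09173-RA (CMT3, MET1) went from 21.9 FPKM to 1.03 and 0.683 (log2 fold change -4.55), Mv19944-RA from 18.0 FPKM to 1.57 and 0.902 (-3.80) and Mv12885-RA from 5.14 FPKM to 1.02 and 0.649 (-2.52). VIM1 (Mv14270-RA), which in Arabidopsis recruits MET1 to replicated DNA, went from 18.9 FPKM to 1.13 and 1.43 (-3.79). Of 15 genes for histone modification, 13 fell, 11 after scaling, beside the same 55.3% and 27.0%, and none rose. The largest fall was that of Mv10940-RA, listed with the histone methyltransferase SDG8, from 13.9 FPKM to 0.193 and 0.226 (-5.50), followed by FLD (Mv09530-RA, -4.12) and a second gene of the SDG8 block (Mv04757-RA, -3.28). All 6 arginine methyltransferase genes fell, beside 55.3% of all tested genes, and 3 of the 6 were lower after scaling, beside 27.0%. The largest falls were those of Mv06222-RA (-4.52), Mv15529-RA (-4.35) and Mv08291-RA (-4.10).

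The 9 genes of small RNA pathways were split, with 1 higher and 4 lower as deposited and 3 higher and 1 lower after scaling, beside 55.3% and 27.0% of all tested genes called lower. HST (Mv00726-RA), the exporter of miRNAs from the nucleus in Arabidopsis, rose from 7.49 FPKM to 24.7 and 25.5 (log2 fold change 1.73 ± 0.11, adjusted p = 4.25e-08), but other libraries reached 38.7 FPKM. The Dicer homolog listed under DCL1 (Mv09111-RA) went from 5.42 FPKM to 0.222 and 0.255 (-4.03), and the cap-binding protein ABH1 (Mv02610-RA, -1.59, and -0.29 after scaling) and the RNA-dependent RNA polymerase homolog Mv14178-RA (-1.98, and -0.70 after scaling) were called lower as deposited only. The 3 genes listed under AGO5 differed: Mv14966-RA fell (-1.46, and -0.15 after scaling), Mv19718-RA had 48.7 FPKM in Control 1 and 30.1 and 27.9 at high temperature, and Mv09951-RA had 18.4 FPKM in Control 1 and 29.6 and 23.9 at high temperature, the last called higher after scaling only.

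Of 14 homologs of phytohormone genes, 1 rose and 8 fell as deposited, close to the shares of all tested genes (6.83% higher, 55.3% lower), and 3 were higher and 2 lower after scaling. The gene that rose was ABA1 (Mv14100-RA), zeaxanthin epoxidase of the xanthophyll cycle and of abscisic acid synthesis in land plants, with 144 FPKM in Control 1 and 394 and 395 at high temperature (log2 fold change 1.46 ± 0.07, adjusted p = 4.75e-09). Its range in the other libraries was 77.2 to 442 FPKM. The auxin efflux carrier PIN2 (Mv05498-RA) fell from 3.84 FPKM to 0.325 and 0.352 (-3.17), EIN2 of ethylene signalling (Mv00528-RA) by 2.24 and the cytokinin response regulator ARR1 (Mv05823-RA) by 1.91 on the log2 scale, the last -0.60 after scaling.

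Transcription factors moved in both directions. Of 112 tested, 13 were higher and 56 lower as deposited, beside 6.83% and 55.3% of all tested genes, and 37 were higher and 24 lower after scaling, beside 23.3% and 27.0%. The single Dof gene (Mv19808-RA) rose from 3.19 FPKM to 63.1 and 48.4 (log2 fold change 4.07 ± 0.15, adjusted p = 4.89e-10), while all other libraries had 3.14 to 6.98 FPKM. A C2H2 zinc finger gene (Mv00503-RA) rose from 11.8 FPKM to 83.8 and 83.9 (2.82), and a B-box gene (Mv17703-RA) from 17.8 FPKM to 120 and 103 (2.64), both above all other libraries. Another B-box gene, Mv19742-RA, fell by 3.89 on the log2 scale, and the largest fall was that of the CXC gene Mv00563-RA, from 7.74 FPKM to 0.102 and 0.0990 (-5.29). The E2F/DP/DEL gene Mv08288-RA fell by 3.99.

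Families differed in their calls. Among all tested genes 6.83% were higher and 55.3% lower as deposited, and 23.3% and 27.0% after scaling. Of 10 tested bZIP genes, 2 rose and none fell as deposited, and 8 were higher after scaling. The 2 bZIP genes that rose were Mv16600-RA, from 24.9 FPKM to 141 and 132, and Mv07644-RA, from 26.6 FPKM to 127 and 128. The 3 R2R3-MYB genes were not called as deposited and were higher after scaling. In other families, all 4 E2F/DP/DEL genes, all 3 CXC genes, both NF-YB and all 3 NF-YC genes fell, with family medians of -2.88, -3.60, -2.78 and -3.18, and 3, 3, 2 and 2 of them were also lower after scaling. Family sizes are too small for more than these counts.

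**Figure D5:**
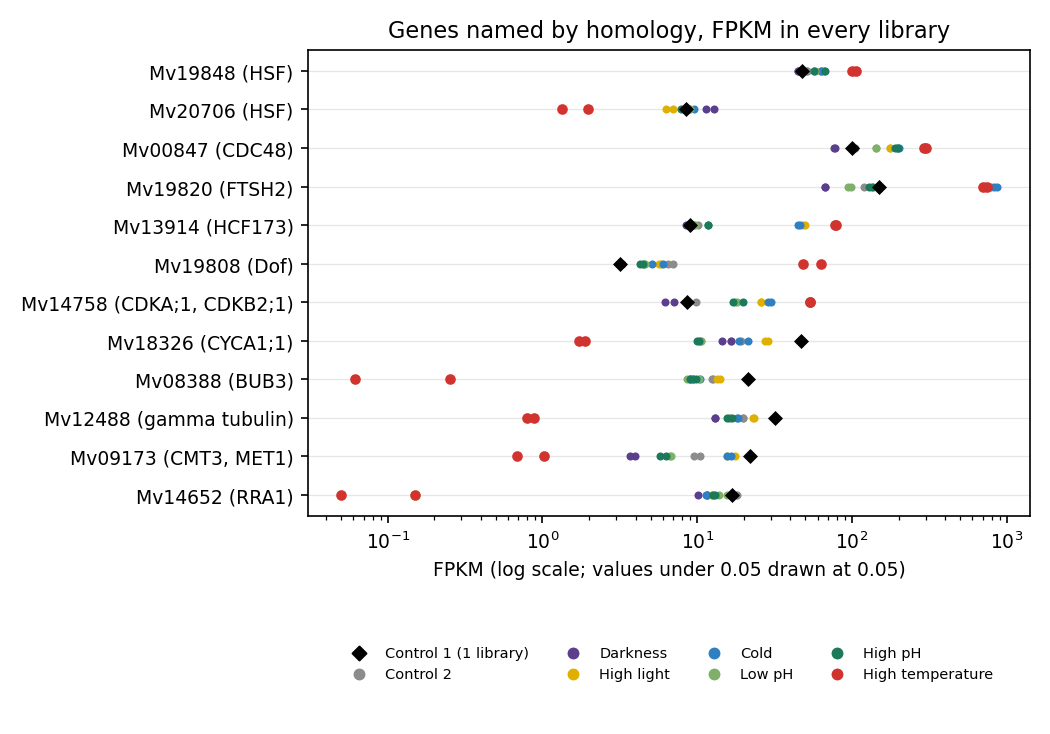
FPKM (x axis, log scale, values under 0.05 drawn at 0.05) of 12 genes named by homology, with 1 point per library, coloured by condition. The 2 high temperature points lie above all others for Mv19848-RA, Mv00847-RA, Mv13914-RA, Mv19808-RA and Mv14758-RA, within the range for Mv19820-RA, and below all others for the remaining 6.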

How the data were processed

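The authors extracted RNA from 2 biological replicates per condition, prepared stranded mRNA libraries (TruSeq) and sequenced them as read pairs (Illumina HiSeq). They removed low-quality reads (FastQC), mapped reads to the *M. viride* genome (Hisat2) and calculated FPKM per gene with Cufflinks at default settings, and these FPKM values were deposited. The genome build is not given in the sources used here. The authors called genes from read counts with DESeq2. Counts were not analysed here, so methods for counts were not used. The number of fragments behind a value is unknown. Among genes under 0.1 FPKM, the most common ratio between a high temperature library and Control 1 (to 0.01 on the log2 scale) was shared by only 22 of 2232 and 33 of 2109 genes, so relative depth could not be read from the steps between low values.

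Genes that reached 0.5 FPKM in 2 or more libraries were analysed as log2(FPKM + 0.1). A linear model with a coefficient for each condition was fitted in limma 3.58.1 (R 4.3.3) to the 15 libraries (7 residual degrees of freedom). The variance prior followed mean expression, and p-values were adjusted over 14297 genes (Benjamini-Hochberg). Scaling divided each library by the median, over tested genes above 0 in every library, of its ratio to the geometric mean. In simulated data for this comparison (14297 genes, 200 of them changed), the calls recovered 79.9%, 89.7% and 95.2% of genes with log2 changes of 1.5, 2 and 3. The simulated noise had the fitted spread in every library, Control 1 included, and the few changes went in random directions. The simulation therefore cannot test the assumed spread of Control 1, nor calls under a shift of most genes.

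Gene lists and names were taken from the study's supplementary gene tables, and names are those of homologs, mostly of Arabidopsis. Some head a block of several genes. Genes named were the 15 with the largest gain and the 15 with the largest loss of share, the 5 called genes with the largest and the 5 with the smallest log2 fold change at a mean of at least 10 FPKM, the 5 highest genes lost or switched on, the HSFs and the heat acclimation gene, and up to 3 called genes per direction of each other list. A few others were chosen with their values in view. The comparison, its lists and this rule were chosen with earlier results of these data known. Alternatives were other pseudocounts, minimums, thresholds, references and scalings, a fit to the compared libraries alone, the replicate number as a block, and leaving out each library. Contrasts of the other conditions with Control 2, a robust variance prior and ratios over all listed genes were added after the data had been seen.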

Additional observations from a re-analysis of the deposited data

How the results depend on the processing

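Counts of called genes were within 1.5 times those reported under the other pseudocounts, minimums, threshold, references and block, in the compared libraries alone and with a robust prior. Scaling changed the split. Upper-quartile scaling gave 2388 genes higher and 4921 lower, median-ratio scaling 3325 and 3863, ratios over all listed genes 2936 and 4263, and quantile normalization 3086 and 3263. Leaving out each library except Control 1 gave 8522 to 9064 called genes, 903 to 995 higher and 7527 to 8161 lower, and after scaling, where only either high temperature library was left out, 7038 to 7340, 3168 to 3364 and 3870 to 3976. The share held by the top 100 genes (53.9%) was 16.5% for the top 10 and 87.8% for the top 1000, and 52.8% to 55.0% with either high temperature library alone. Of 107 named genes, 87 kept their call, and where called their direction, under the alternatives run for single genes, in which of the libraries only those of high temperature were left out. Among genes named by rule and called with or without the change, signs turned after median-ratio scaling for Mv09666-RA (0.19), Mv00801-RA (0.15), Mv17348-RA (1.01), Mv20172-RA (0.19), Mv14619-RA (0.10) and Mv05251-RA (0.24), with ratios over all listed genes for Mv09666-RA (0.051), Mv00801-RA (0.0072), Mv20172-RA (0.046) and Mv05251-RA (0.10), and under quantile normalization for Mv20172-RA (0.062) and Mv07617-RA (0.21). Scaling by ratios moves every gene upward at high temperature by construction, and for quantile normalization the cause was not tested. Replicate numbers did not pair the libraries, as the correlations of replicate differences between conditions were -0.08 to 0.07, and with the replicate number as a block 8882 genes were called (972 higher, 7910 lower), and 7196 after scaling. With a high temperature library left out, the remaining one is assumed to vary like the other conditions. Control 1 could not be left out.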
